A study of Mus musculus with 6 samples.

Results

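Expression of 10 genes for transporters and receptors of the blood-brain barrier was examined in single cells of adult mouse brain: Slc2a1, Mfsd2a, Abcb1a, Abcg2, Slco1a4, Slco1c1, Slc7a5, Slc3a2, Slc16a1 and Tfrc. They were taken as a fixed list of gene symbols from the 32285 genes of the deposited matrices, and all 10 were found. The values are UMIs, counts of unique RNA molecules, given here as CPM, the UMIs of a gene scaled to 1000000 UMIs of the same barcodes. The mice were 8 to 12 weeks old, and the cells came from cortex and subventricular zone. Cells were digested for 30 minutes at 37 °C and sorted by flow cytometry as endothelial cells (CD31 without Glast) or neural stem and progenitor cells (Glast without CD31), in both cases without CD45. There were 2 libraries in each of 3 groups, labelled Cx43ECiKO, Cx43GlastiKO and Cx43flox/flox. Cx43 is connexin 43, a gap junction protein encoded by Gja1. The Cx43flox/flox group is the control and carries floxed Gja1 alleles. The names of the other groups direct the deletion at endothelial cells (ECiKO) and at Glast-expressing cells (GlastiKO). The Cre lines and the inducing agent are not given in the sources used here. The labels call the libraries of a group biological replicates. Whether animals were pooled is not given in the sources used here, so p-values measure the spread between these libraries.

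Brain endothelial cells are sealed by tight junctions, so nutrients reach the brain largely through carriers in their membranes. Efflux pumps on the blood side return drugs and other lipophilic compounds to the blood. Receptors such as the transferrin receptor carry larger cargo by vesicles. The same carriers can also serve glia, and this differs from gene to gene.

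Cell classes were set by marker genes, none of which was among the 10 transporter genes. A barcode joined a class when at least 3 of its 10 markers were detected and no other class reached more than a fraction of 0.5 of that number. Of 7433 barcodes, 6323 passed the quality limits and 1624 were endothelial-like. A median of 9 of the 10 endothelial markers was detected in them, and 1623 of the 1624 also fell into endothelial-like clusters that were built without the transporter genes. All 10 endothelial markers were detected in the endothelial-like barcodes of each library, with summed levels of 16270 to 19480 CPM. The libraries differed by number in every group. Endothelial-like barcodes made up 89.8% of ECiKO replicate 1, 87.3% of GlastiKO replicate 1 and 90.2% of control replicate 1, but 0.799%, 5.18% and 4.56% of the libraries numbered 2, which were rich in glia. Their numbers were 368 and 20 in the ECiKO libraries, 434 and 62 in the GlastiKO libraries and 697 and 43 in the control libraries (replicate 1 first). The endothelial-like UMIs behind the values were 1192317 and 37322 in ECiKO, 1525928 and 205902 in GlastiKO, and 2478161 and 117817 in control libraries. Intervals on counts cover counting error only. In all, 5 barcode sequences occurred in more than 1 library.

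Gja1, the targeted gene, was not lower where the labels direct its deletion. Its endothelial-like level was 221 and 214 CPM with the label ECiKO, 139.6 and 136 CPM with the label GlastiKO, and 91.6 and 110.3 CPM in controls, and edgeR called it higher for ECiKO against control (log2 fold change 1.20 ± 0.31, adjusted p = 0.0496). That call was lost with DESeq2 (1.15, adjusted p = 1), without ECiKO replicate 1 (0.94, adjusted p = 0.717), without control replicate 1 (1.08, adjusted p = 0.999) and without control replicate 2 (1.23, adjusted p = 0.235), and also without a filter on low counts (adjusted p = 0.102), with the stricter gate (0.0648) and with clusters in place of the gate (0.0762). Without barcodes that held a UMI of Plvap, described below, the Gja1 ratios to the control library of the same number were larger. For ECiKO the ratio rose from 2.41 to 3.19 (interval of counting error 2.61 to 3.91) in replicate 1. In replicate 2 it rose from 1.94 to 2.65 (0.89 to 7.74). For GlastiKO the ratios rose from 1.52 to 1.97 and from 1.23 to 1.68 in the same order. In astroglial-like barcodes Gja1 stood at 2512 CPM in ECiKO replicate 2, 2439 CPM in GlastiKO replicate 2 and 2507 CPM in control replicate 2. These counts come from the 3′ ends of transcripts, and whether they lie inside the deleted part is not given in the sources used here. The groups are therefore named throughout as the libraries are labelled.

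The genes divide by what they carry, and their positions are given on mm10 with GENCODE release M21. Slc2a1 (chr4:119108711-119137983, plus strand) encodes the glucose carrier GLUT1. Slc7a5 (chr8:121881150-121907694, minus strand) and Slc3a2 (chr19:8706882-8723369, minus strand) encode the light and heavy chain of a carrier of large neutral amino acids. Slc16a1 (chr3:104638668-104658462, plus strand) encodes MCT1, a carrier of lactate, pyruvate and ketone bodies. Mfsd2a (chr4:122946850-122961188, minus strand) encodes a carrier of lysophospholipids with docosahexaenoic acid, which also restrains transcytosis in brain endothelium. Abcb1a (chr5:8660077-8748575, plus strand) and Abcg2 (chr6:58584523-58695676, plus strand) encode the efflux pumps P-glycoprotein and breast cancer resistance protein. Slco1a4 (chr6:141805440-141856199, minus strand) and Slco1c1 (chr6:141524368-141570177, plus strand) lie on the same chromosome and encode organic anion carriers, of which the Slco1c1 product takes up thyroxine. Tfrc (chr16:32608920-32632794, plus strand) encodes the transferrin receptor, which brings iron into the cell. Near-identical copies were sought for the last 500 bases of every coding transcript of these genes. For 9 of the 10 genes no other gene matched over at least 90 bases at 95% identity or more. For Slc3a2, 1 of 8 transcripts had matches in 221 other genes.

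The promoters of these genes are not alike in base composition, and 4 are shown because they span that range. They come from RefSeq (GRCm38.p6), cover 250 bases before and 50 after the start, and are written 5′ to 3′ on the gene's strand with every CpG in capitals. The RefSeq start of each lies 4 to 34 bases from the GENCODE start.
Slco1a4 (chr6:141856171-141856470, minus strand): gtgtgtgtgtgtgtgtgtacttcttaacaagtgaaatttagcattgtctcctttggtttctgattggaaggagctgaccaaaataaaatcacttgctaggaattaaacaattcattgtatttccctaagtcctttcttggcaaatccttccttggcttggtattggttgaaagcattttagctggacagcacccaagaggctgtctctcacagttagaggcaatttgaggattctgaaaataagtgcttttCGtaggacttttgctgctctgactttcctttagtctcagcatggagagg
Slco1c1 (chr6:141524104-141524403, plus strand): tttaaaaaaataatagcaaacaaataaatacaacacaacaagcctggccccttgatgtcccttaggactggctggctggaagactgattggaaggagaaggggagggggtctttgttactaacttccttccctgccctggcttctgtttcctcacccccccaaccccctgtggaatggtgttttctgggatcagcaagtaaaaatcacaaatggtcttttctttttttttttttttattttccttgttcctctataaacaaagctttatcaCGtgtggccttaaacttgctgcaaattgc
Slc2a1 (chr4:119108495-119108794, plus strand): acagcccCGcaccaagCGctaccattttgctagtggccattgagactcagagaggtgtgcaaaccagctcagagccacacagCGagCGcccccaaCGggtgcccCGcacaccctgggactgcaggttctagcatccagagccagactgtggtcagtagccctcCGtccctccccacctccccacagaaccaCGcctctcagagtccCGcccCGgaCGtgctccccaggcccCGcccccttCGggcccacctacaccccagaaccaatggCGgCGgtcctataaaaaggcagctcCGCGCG
Slc16a1 (chr3:104638414-104638713, plus strand): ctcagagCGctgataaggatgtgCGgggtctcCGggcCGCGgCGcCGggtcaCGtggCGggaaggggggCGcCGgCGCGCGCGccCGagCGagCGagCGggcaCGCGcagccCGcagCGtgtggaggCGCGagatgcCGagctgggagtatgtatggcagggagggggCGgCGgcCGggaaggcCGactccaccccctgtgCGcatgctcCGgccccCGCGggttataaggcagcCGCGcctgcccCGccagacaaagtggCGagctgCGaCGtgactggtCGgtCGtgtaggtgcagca
The promoters of the organic anion carriers Slco1a4 and Slco1c1 hold 1 CpG each, with 40.7% and 42% G or C. The Slc2a1 promoter holds 18 CpGs and the Slc16a1 promoter 42, with 65.3% and 73.7% G or C. Over 32851 RefSeq mouse promoters of this length the median was 7 CpGs and 52.7% G or C, and 97% of them hold fewer CpGs than that of Slc16a1. The GC box GGGCGG, sought on both strands, occurs at 2 places in the Slc2a1 promoter and 1 in that of Slc16a1, and it is found in 35.7% of all promoters. The letters TATAAA, also sought on both strands, occur at 1 place each in the Slco1c1 and Slc2a1 promoters, and they are found in 13.6% of all promoters. Promoter entries matched 9 of the 10 genes; Slc7a5 is named only.

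The first question was how far each gene is confined to endothelial-like cells. All 10 transporter genes were higher in endothelial-like than in pericyte-like, astroglial-like and oligodendrocyte-like barcodes of the same libraries. Slco1a4 and Abcb1a had the steepest differences to both glial classes. Slco1c1, Slc3a2, Slc2a1 and Mfsd2a had the highest means in astroglial-like barcodes (555, 301, 144 and 137 CPM). In oligodendrocyte-like barcodes Slc16a1, Slc2a1, Slc3a2 and Tfrc did (112.5, 84.7, 71.8 and 64.45 CPM). Tests used edgeR's quasi-likelihood test on UMIs summed per library and class, with the library as a block and Benjamini-Hochberg adjustment over all genes tested. Against pericyte-like barcodes (5 libraries) 10 of 10 genes were called higher, where 34.5% of 2348 genes tested were. Against astroglial-like barcodes (3 libraries) 10 of 10 were called higher, where 24.4% of 5584 genes were. Against oligodendrocyte-like barcodes (3 libraries) 10 of 10 were called higher, where 18.8% of 9919 genes were. The median log2 fold change of the 10 genes was 3.39 against astroglial-like and 5.16 against oligodendrocyte-like barcodes, beside -0.11 and -0.20 over all genes tested. Mfsd2a, Slc7a5 and Slc16a1 had 0 UMIs in pericyte-like barcodes, so they passed the filter on low counts through their endothelial-like sums alone. That limit reaches other genes. In pericyte-like barcodes the remaining genes had 1 to 16 UMIs, except Slc3a2 with 77. Astroglial-like barcodes held 1, 4 and 8 UMIs of Abcb1a, Slco1a4 and Abcg2. Oligodendrocyte-like barcodes held 5, 8 and 14 UMIs of Abcb1a, Slc7a5 and Slco1a4. For genes with so few UMIs in the other class, the direction of a call was largely fixed by the filter. Markers of pericytes and smooth muscle were nearly absent from the endothelial-like sums, at 0 to 35.4 CPM over the 10 genes of that list, with 0 to 6 of them detected per library and Kcnj8, Ndufa4l2 and Acta2 at 0 in all 6. With Mfsd2a, Slc7a5 and Slc16a1 at their bound the median log2 ratio to pericyte-like barcodes was 6.39, beside a median log2 fold change of 0.04 over all genes. The fits have 2 to 4 residual degrees of freedom, so the spread that enters each p-value is largely that of all genes together.

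**Figure D1:**
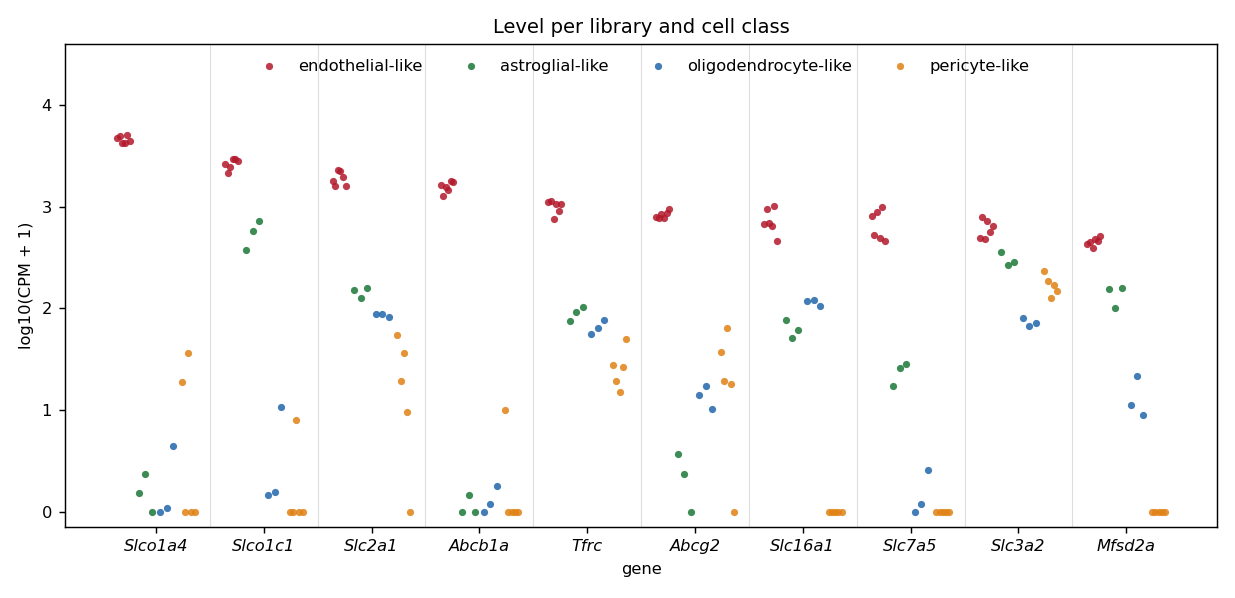
Level of each gene as log10(CPM + 1) in endothelial-like (red), astroglial-like (green), oligodendrocyte-like (blue) and pericyte-like (orange) barcodes. Each point is 1 library with at least 10 barcodes of the class; Slco1a4 and Abcb1a lie near 0 in astroglial-like and oligodendrocyte-like barcodes, while Slc3a2 is at 66.4 CPM or more in every point and Slco1c1 reaches 725 CPM in astroglial-like barcodes.

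Slc2a1, the glucose carrier gene, stood at 1947 and 1581 CPM in endothelial-like barcodes of ECiKO, 2305 and 2220 CPM of GlastiKO and 1805 and 1596 CPM of control libraries (replicate 1, then 2). Outside endothelium it was present in every glial class: 157, 125.7 and 149 CPM in astroglial-like and 80.3, 87.4 and 86.5 CPM in oligodendrocyte-like barcodes of ECiKO, GlastiKO and control replicate 2. No endothelial-like value overlapped a glial one. The difference on the log2 scale was 3.39 ± 0.22 (SE) against astroglial-like (adjusted p = 6.68e-50) and 4.02 ± 0.24 against oligodendrocyte-like barcodes (adjusted p = 1.13e-59).

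Slc7a5 and Slc3a2, the partner chains of the amino acid carrier, differed in their reach. Slc7a5 stood at 997 and 455 CPM in ECiKO, 889 and 486 CPM in GlastiKO and 805 and 526 CPM in control endothelial-like barcodes. It reached at most 27.1 CPM in astroglial-like and 1.56 CPM in oligodendrocyte-like sums, and no UMI of it was found among 447210 UMIs of pericyte-like barcodes, so it was at least 121-fold higher in endothelial-like barcodes (bound at 3 counts over the group). Slc3a2, whose product also serves other amino acid carriers, stood at 562 and 643 CPM in ECiKO, 480 and 729 CPM in GlastiKO and 491 and 781 CPM in control endothelial-like barcodes. The heavy chain gene was present in every class. Its level was 282, 268 and 354 CPM in astroglial-like barcodes of ECiKO, GlastiKO and control replicate 2, and 126 to 234 CPM in the 5 pericyte-like sums. Its differences were the smallest of the 10 genes against pericyte-like (log2 fold change 1.80 ± 0.21, adjusted p = 5.13e-09) and astroglial-like barcodes (0.99 ± 0.21, adjusted p = 1.21e-05). The difference from astroglial-like barcodes did not pass with DESeq2 (0.87, adjusted p = 0.0813) or without GlastiKO replicate 2 (0.75, adjusted p = 0.066).

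Slc16a1, the lactate carrier gene, stood at 1008 and 455 CPM in ECiKO, 684 and 646 CPM in GlastiKO and 678 and 942 CPM in control endothelial-like barcodes. Among glia its level was higher in oligodendrocyte-like than in astroglial-like barcodes in each of the 3 libraries that held both. These values were 103, 118 and 116 CPM in oligodendrocyte-like and 59.6, 49.7 and 75.3 CPM in astroglial-like barcodes of ECiKO, GlastiKO and control replicate 2. The log2 fold change of endothelial-like against oligodendrocyte-like barcodes was 2.24 ± 0.22 (adjusted p = 2.11e-22), the smallest of the 10 genes in that comparison. Because oligodendrocyte-like barcodes were so numerous in the libraries numbered 2, endothelial-like barcodes held only 3.9% of the Slc16a1 UMIs of ECiKO replicate 2, 8.88% of GlastiKO replicate 2 and 10.6% of control replicate 2.

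Mfsd2a, the lysophospholipid carrier gene, stood at 459 and 509 CPM in ECiKO, 389.9 and 476 CPM in GlastiKO and 432 and 449.9 CPM in control endothelial-like barcodes. The endothelial-like libraries lay close together for this gene, with a mean of 453 ± 40.3 CPM (SD, n = 6). Astroglial-like barcodes held 157, 99.9 and 153 CPM of it in ECiKO, GlastiKO and control replicate 2, so the gene was not confined to endothelium among the classes measured. The log2 fold change was 1.59 ± 0.23 against astroglial-like barcodes (adjusted p = 4.17e-11). In pericyte-like barcodes no UMI was found, and the gene was at least 62.7-fold higher in endothelial-like barcodes.

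The efflux pump genes Abcb1a and Abcg2 were close to absent from astroglia. Abcb1a stood at 1800 and 1742 CPM in ECiKO, 1547 and 1447 CPM in GlastiKO and 1646 and 1265 CPM in control endothelial-like barcodes, and 1 UMI of it was found among 4454287 UMIs of astroglial-like barcodes. In the libraries numbered 2, endothelial-like barcodes held 0.818% to 1.52% of the UMIs of all gated barcodes but 95.6%, 99% and 100% of the Abcb1a UMIs of ECiKO, GlastiKO and control. Abcg2 stood at 855 and 938 CPM in ECiKO, 848 and 772 CPM in GlastiKO and 782 and 764 CPM in control endothelial-like barcodes. Abcg2 was found at low levels in further classes, such as 9.12 to 16.3 CPM in oligodendrocyte-like and 0 to 63.2 CPM in pericyte-like sums. In choroid plexus-like barcodes it stood at 12.85, 8.94 and 7.66 CPM in ECiKO, GlastiKO and control replicate 2, from at most 2 UMIs each. In neuroblast-like barcodes it stood at 8.83, 10.2 and 0 CPM in the same order, again from at most 2 UMIs. All astroglial-like barcodes held 8 UMIs of it. Abcb1b, the second P-glycoprotein gene of rodents, ran the other way at low levels. It had 4 UMIs in all endothelial-like barcodes (0 to 1.31 CPM per library) and 27 in all astroglial-like barcodes (2.71 to 6.94 CPM).

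The organic anion carrier genes differed in astroglia. Slco1a4 stood at 5119 and 4448 CPM in ECiKO, 4251 and 4230 CPM in GlastiKO and 4704 and 4957 CPM in control endothelial-like barcodes. It had 4 UMIs in all astroglial-like and 14 in all oligodendrocyte-like barcodes, of which 13 were in ECiKO replicate 2. Endothelial markers in oligodendrocyte-like sums were also highest there, at 15.4 CPM against 1.23 and 1.17 CPM in GlastiKO and control replicate 2. Their part in the Slco1a4 UMIs was not tested. Slco1c1 stood at 2943 and 2787 CPM in ECiKO, 2458 and 2963 CPM in GlastiKO and 2613 and 2156 CPM in control endothelial-like barcodes. Astroglial-like barcodes held 725, 569 and 372 CPM of Slco1c1 in ECiKO, GlastiKO and control replicate 2, a log2 fold change of 2.02 ± 0.21 for endothelial-like against astroglial-like barcodes (adjusted p = 1.31e-21). Slco1c1 was also present in choroid plexus-like barcodes, the secretory epithelium of the ventricles, at 296 CPM in 65 barcodes of ECiKO replicate 2, 335 CPM in 14 barcodes of GlastiKO replicate 2 and 513 CPM in 5 barcodes of control replicate 2. These have no test.

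Tfrc, the transferrin receptor gene, stood at 910 and 1072 CPM in ECiKO, 752 and 1068 CPM in GlastiKO and 1111 and 1137 CPM in control endothelial-like barcodes. It was found in all glial sums, at 103, 90.4 and 74.2 CPM in astroglial-like and 75.3, 63 and 55 CPM in oligodendrocyte-like barcodes of ECiKO, GlastiKO and control replicate 2. The log2 fold change was 3.38 ± 0.22 against astroglial-like (adjusted p = 3.06e-49) and 3.74 ± 0.23 against oligodendrocyte-like barcodes (adjusted p = 1.16e-57).

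Detection in single barcodes followed the same division. After each barcode was thinned to 1000 UMIs, at least 1 Slco1a4 UMI was found in 97.8% of 319 endothelial-like barcodes of ECiKO replicate 1, 94.4% of 411 of GlastiKO replicate 1 and 92% of 651 of control replicate 1. Without thinning these shares were 98.6%, 98.6% and 95.1%. Slco1a4 was found in 0 of 401 thinned astroglial-like barcodes of GlastiKO replicate 2, which allows a share of up to 0.748%, and in 0 of 392 of control replicate 2, which allows up to 0.765%. These limits are on barcodes with a UMI at 1000 UMIs, not on cells that express the gene, and without thinning Slco1a4 was found in 3 of 411 astroglial-like barcodes of GlastiKO replicate 2 and 1 of 407 of control replicate 2. In oligodendrocyte-like barcodes, which should lack the gene, it was found in 1 of 659 thinned barcodes of ECiKO replicate 2 (0.152%), 0 of 592 of GlastiKO replicate 2 and 0 of 426 of control replicate 2, which allow up to 0.507% and 0.704%. Thinning left out 49, 23 and 46 shallower endothelial-like barcodes of ECiKO, GlastiKO and control replicate 1, and 1289, 3 and 14 oligodendrocyte-like barcodes of ECiKO, GlastiKO and control replicate 2. Over all barcodes of the class, before thinning, the median depths were 2886.5, 3211.5 and 3417 UMIs in these endothelial-like and 774.5, 17535 and 15725.5 UMIs in these oligodendrocyte-like barcodes. Slc3a2, by contrast, was found in 41.1%, 33.3% and 36.2% of thinned endothelial-like barcodes of ECiKO, GlastiKO and control replicate 1, and in 19.5%, 20.2% and 23.2% of thinned astroglial-like and 7.13%, 6.76% and 7.51% of thinned oligodendrocyte-like barcodes of ECiKO, GlastiKO and control replicate 2. The median number of the 10 genes found in a thinned endothelial-like barcode was 6 in 5 libraries and 5 in ECiKO replicate 2, against 1 in astroglial-like and 0 in oligodendrocyte-like barcodes of each library.

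The wider transport list had genes that were higher and genes that were lower in endothelial-like barcodes. It holds 52 other genes of carriers, pumps and uptake receptors of brain endothelium in 5 groups. Against astroglial-like barcodes 24 were higher and 11 lower of 37 tested, and against oligodendrocyte-like barcodes 25 were higher and 12 lower of 42. Against pericyte-like barcodes 22 were higher and 4 lower of 26. Over all genes tested, 30.2%, 25.1% and 29.3% were lower in these comparisons with astroglial-like, oligodendrocyte-like and pericyte-like barcodes, beside the shares that were higher given above, so the counts of lower genes against both glial classes were near those of all genes. Slc6a6, the taurine carrier gene, was higher than in astroglial-like barcodes by 8.03 ± 0.30 on the log2 scale (adjusted p = 1.87e-150, edgeR), and Slc7a1, a carrier of cationic amino acids, by 7.22 ± 0.31. Slc22a8, an organic anion carrier gene, and Bsg, whose product basigin escorts MCT1 to the membrane, were higher than in astroglial-like barcodes by 11.93 and 5.12. Slc40a1, the gene of the iron exporter ferroportin, and Slc39a10, a zinc carrier gene, were higher than in oligodendrocyte-like barcodes by 11.91 and 6.71. Slc19a1, the reduced folate carrier gene, ran the other way: it stood at 0 to 12.3 scaled CPM in endothelial-like and 584 to 919.6 scaled CPM in pericyte-like sums, a log2 fold change of -8.95 ± 0.40 (adjusted p = 1.29e-19). The efflux pumps of the list also divided, with 1 higher and 3 lower of 4 tested against astroglial-like barcodes.

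Genes whose levels ran most like each of the 10 were sought over 21 class and library sums, among 12488 genes, by Pearson's r of log2(CPM + 1). These sums share libraries, and classes set most of the spread. Abcb1a ran most like Robo4 (r = 0.998), a receptor gene of endothelium, and Slco1a4 most like Nos3 (r = 0.972), the endothelial nitric oxide synthase gene. Mfsd2a ran most like Vwa1 (r = 0.981) and Tfrc most like the insulin receptor gene Insr (r = 0.953). Slc3a2 had the lowest best value, with Swap70 (r = 0.919).

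The next question was how the genes vary among endothelial-like barcodes along the vessel tree. Barcodes were gated as arterial or venous when at least 2 of 12 markers of a gate were detected and the other gate reached no more than a fraction of 0.5 of that number. Slc16a1 and Tfrc were lower in arterial-gated than in venous-gated barcodes, and Mfsd2a was higher. These 3 of the 10 genes were called, where 4.19% of 5777 genes tested were. Slc16a1 and Tfrc were the 2 called lower, where 2.06% of all genes were, and Mfsd2a was the 1 called higher, where 2.13% were, with 5 libraries in the fit and the library as a block. The median log2 fold change was -0.09 over the 10 genes and 0.01 over all genes tested. Gja1, which is no marker of either gate, was higher in arterial-gated barcodes (log2 fold change 0.91 ± 0.22, adjusted p = 0.00835, edgeR). In control replicate 1 it stood at 378.6 CPM in the 34 Plvap-positive barcodes described below and 69.17 CPM in the others. Of these 34, 21 were arterial-gated and 0 venous-gated. Their part in the Gja1 difference was not tested.

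Slc16a1 stood at 713 CPM in arterial-gated and 1414 CPM in venous-gated barcodes of ECiKO replicate 1. In GlastiKO libraries it stood at 487 and 399 CPM in arterial-gated and 912 and 817 CPM in venous-gated barcodes. In control libraries it stood at 424 and 524 CPM in arterial-gated and 762 and 1550 CPM in venous-gated barcodes. No arterial-gated value reached the venous-gated value of its library, and edgeR gave -0.97 ± 0.16 on the log2 scale (adjusted p = 2.71e-05).

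Tfrc stood at 684 CPM in arterial-gated and 1066 CPM in venous-gated barcodes of ECiKO replicate 1. In GlastiKO libraries it stood at 577 and 811 CPM in arterial-gated and 908 and 1570 CPM in venous-gated barcodes. In control libraries it stood at 713 and 984 CPM in arterial-gated and 1518 and 1788 CPM in venous-gated barcodes. Its arterial-gated value was the lower one in 5 of 5 libraries, a difference of -0.80 ± 0.16 on the log2 scale in edgeR (adjusted p = 0.000491). Without control replicate 1 the call was lost (-0.74, adjusted p = 0.074).

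Mfsd2a stood at 528 CPM in arterial-gated and 292 CPM in venous-gated barcodes of ECiKO replicate 1. In GlastiKO libraries it stood at 465 and 576 CPM in arterial-gated and 308 and 230.3 CPM in venous-gated barcodes. In control libraries it stood at 437 and 461 CPM in arterial-gated and 315 and 556 CPM in venous-gated barcodes. It was higher in arterial-gated barcodes in 4 of 5 libraries, all but control replicate 2 with 11 venous-gated barcodes, and the difference was 0.64 ± 0.17 on the log2 scale in edgeR (adjusted p = 0.0157). The call was lost without ECiKO replicate 1 (0.58, adjusted p = 0.22), without GlastiKO replicate 1 (0.63, adjusted p = 0.112) and without control replicate 1 (0.68, adjusted p = 0.215).

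The other 7 genes were not called between the gates. Slc2a1 and Slco1c1 had log2 fold changes of 0.41 ± 0.16 (adjusted p = 0.182) and 0.42 ± 0.15 (adjusted p = 0.156). Both passed with a stricter vessel gate of 3 markers (0.47, adjusted p = 0.00441 for Slc2a1; 0.46, adjusted p = 0.00362 for Slco1c1), and without control replicate 2 (0.44, adjusted p = 0.0171; 0.39, adjusted p = 0.045). Abcb1a, Abcg2, Slco1a4, Slc3a2 and Slc7a5 had log2 fold changes between -0.22 and 0.15. Barcodes in neither gate were shallower, with medians of 1875, 2282 and 2655 UMIs in ECiKO, GlastiKO and control replicate 1. Slc7a5 stood highest in these ungated barcodes, at 1166 CPM in ECiKO replicate 1 (910 arterial, 914 venous), 974 CPM in GlastiKO replicate 1 (833 arterial, 865 venous) and 1003 CPM in control replicate 1 (614 arterial, 819 venous). This order did not hold in the libraries numbered 2, where Slc7a5 stood at 520 CPM in ungated and 607 CPM in venous-gated barcodes of GlastiKO and at 557 CPM in ungated and 649 CPM in arterial-gated barcodes of control.

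**Figure D2:**
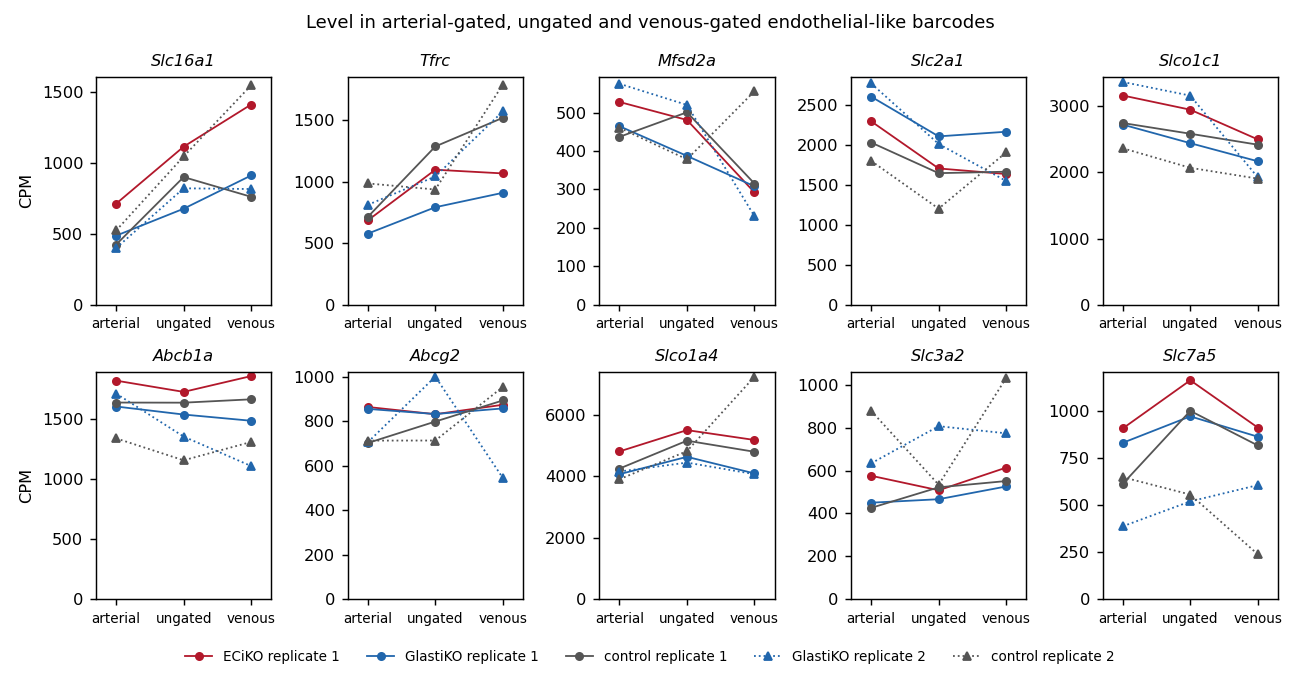
CPM of each gene in arterial-gated, ungated and venous-gated endothelial-like barcodes; each line is 1 library with at least 10 barcodes in both gates (ECiKO red, GlastiKO blue, control grey; solid lines replicate 1, dotted lines replicate 2). Slc16a1 and Tfrc lie lower in arterial-gated than in venous-gated barcodes in all 5 libraries, and Mfsd2a lies higher in 4 of 5.

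Of the wider transport list, 1 gene was higher and 5 were lower in arterial-gated barcodes of 34 tested, beside the 2.13% and 2.06% of all genes. Leaving out 1 library changed these counts: 0 were higher and 0 lower without ECiKO replicate 1 (31 tested) or without control replicate 1 (26 tested), and 0 were higher and 3 lower without GlastiKO replicate 1 (26 tested). With DESeq2 1 was higher and 3 were lower, and Lepr was not among them (adjusted p = 0.202). In edgeR the iron exporter gene Slc40a1 differed by -0.69 ± 0.16 (adjusted p = 0.00397), and the glutamine carrier gene Slc38a3 by -0.63 ± 0.16 (adjusted p = 0.00886). The leptin receptor gene Lepr was lower by -1.10 ± 0.30 on the log2 scale (adjusted p = 0.0202), at 12.7 to 42 scaled CPM in arterial-gated and 0 to 73.1 scaled CPM in venous-gated sums. The Lepr ranges overlap: it was lower in arterial-gated barcodes of ECiKO, GlastiKO and control replicate 1, and higher in those of GlastiKO and control replicate 2. Slc9a3r2, which encodes a scaffold for membrane carriers, was the gene that was higher (0.62 ± 0.16, adjusted p = 0.0164).

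Spread between endothelial-like barcodes was largest for Slc16a1, and Slco1a4 and Tfrc followed. It was measured as a dispersion index, the variance of a gene's counts relative to that of counting alone, in barcodes without a Plvap UMI of the libraries numbered 1, beside genes of at least 100 CPM. The index of Slc16a1 was 6.85 in ECiKO, 5.49 in GlastiKO and 5.74 in control replicate 1, above that of 98.9%, 97.9% and 98.6% of the genes, whose medians were 1.34, 1.36 and 1.35. Slco1a4 had indices of 4.09, 4.48 and 4.91 and Tfrc of 3.24, 4.18 and 4.51 in the same order. Slc3a2 had the lowest among the 10 in ECiKO (1.17), GlastiKO (1.53) and control (1.49) replicate 1. At an equal relative spread the index grows with a gene's level, and Slco1a4 had the highest level.

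Slc16a1 was missing from many barcodes for its level. After thinning to 1000 UMIs, 56.1%, 63.6% and 60.2% of endothelial-like barcodes of ECiKO, GlastiKO and control replicate 1 had 0 Slc16a1 UMIs. Counting error around the mean alone would leave 32.2%, 51.2% and 45.7%. The 10% of barcodes richest in Slc16a1 held 54.3%, 55.8% and 51.2% of its UMIs, with up to 12, 11 and 8 UMIs in a barcode. This share is also high for genes of low mean: it was 50.3%, 51.8% and 51.5% for Mfsd2a and 43.2%, 49% and 48% for Slc3a2 in the same libraries. For Slc3a2, with a lower mean, the share at 0 was 61.1%, 65.5% and 64.7%, close to the 58.9%, 61.9% and 61.5% that the mean alone would leave.

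**Figure D3:**
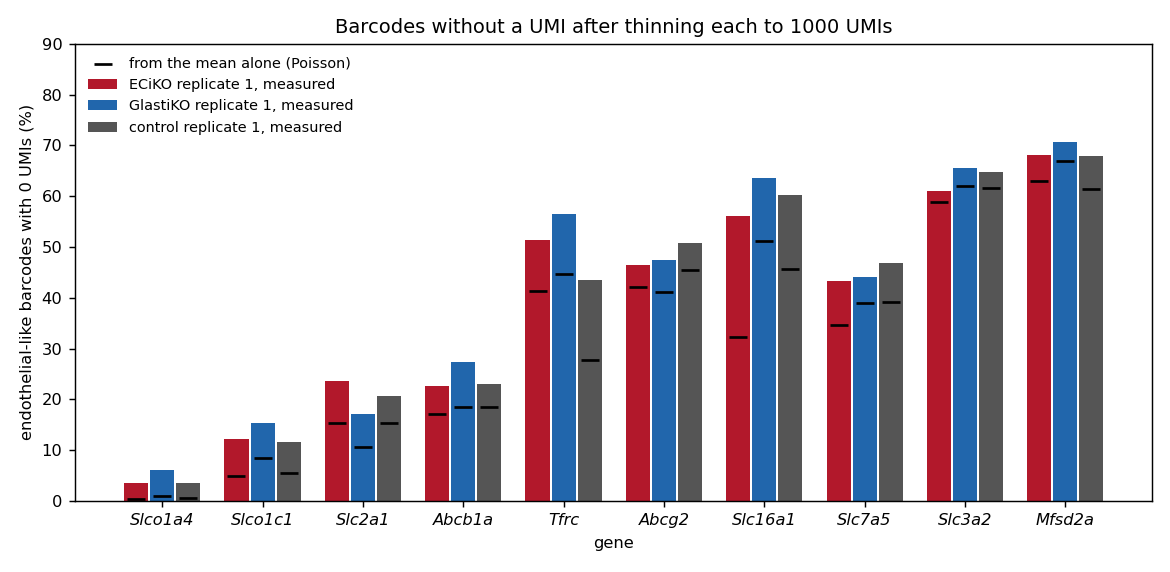
Percent of endothelial-like barcodes (no Plvap UMI, thinned to 1000 UMIs) with 0 UMIs of each gene in ECiKO (red), GlastiKO (blue) and control (grey) replicate 1; black dashes give the percent that a Poisson distribution of the same mean would leave. Slc16a1 and Tfrc bars stand farthest above their dashes, by 12.4 to 23.9 and 10.1 to 15.7 percentage points.

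A small set of Plvap-positive endothelial-like barcodes stood apart. Plvap encodes a protein of fenestrae and caveolae that mature barrier endothelium lacks. It was found in 34 of 697 endothelial-like barcodes of control replicate 1, in 3 of GlastiKO replicate 1 and in 1 of control replicate 2, and in none of the ECiKO libraries or GlastiKO replicate 2. Since 1 library holds most of them, the values are a description. In control replicate 1 every transporter gene was lower in Plvap-positive than in Plvap-negative barcodes, by 1.71-fold (Slc3a2) to 31.1-fold (Slc7a5). Slc2a1 stood at 94.7 CPM in Plvap-positive and 1938 CPM in Plvap-negative barcodes, and Slco1a4 at 345 and 5044 CPM. Abcg2 stood at 267 CPM in Plvap-positive and 822 CPM in Plvap-negative barcodes, and Slc3a2 at 295 and 506 CPM.

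The markers of these barcodes were partly those of other endothelial-like barcodes. Cldn5, the gene of the main tight junction protein of brain endothelium, stood at 356 CPM in Plvap-positive and 5313 CPM in Plvap-negative barcodes. Pecam1 (1025 and 771 CPM), Cdh5 (1052 and 618 CPM) and Flt1 (4700 and 6507 CPM) had no such gap. All of these are markers of the endothelial-like gate, so their detection in both sets was partly fixed by that gate. The other markers of the gate were not compared. Of the 34 barcodes, 31 fell into a single cluster, 21 were arterial-gated and 13 ungated. They thus entered the arterial-gated but not the venous-gated sum of control replicate 1. The edgeR fit between the gates without Plvap-positive barcodes, chosen after seeing the data, still called 3 of the 10 genes. In arterial-gated barcodes 1 was higher and 2 were lower, where 254 of 5769 genes tested were called. Most of the remaining transporter signal came from the margin of the Plvap gate. The 3 barcodes with exactly 1 Plvap UMI held 160 UMIs of the 10 genes (18000 CPM summed), the 31 with more Plvap UMIs held 125 (732 CPM), and Plvap-negative barcodes stood at 16120 CPM. In the 31 barcodes, Mfsd2a and Slc7a5 had 0 UMIs, Slco1a4 and Tfrc 1 UMI each, and Abcg2 and Slc3a2 still 44 and 43 UMIs (258 and 252 CPM).

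**Figure D4:**
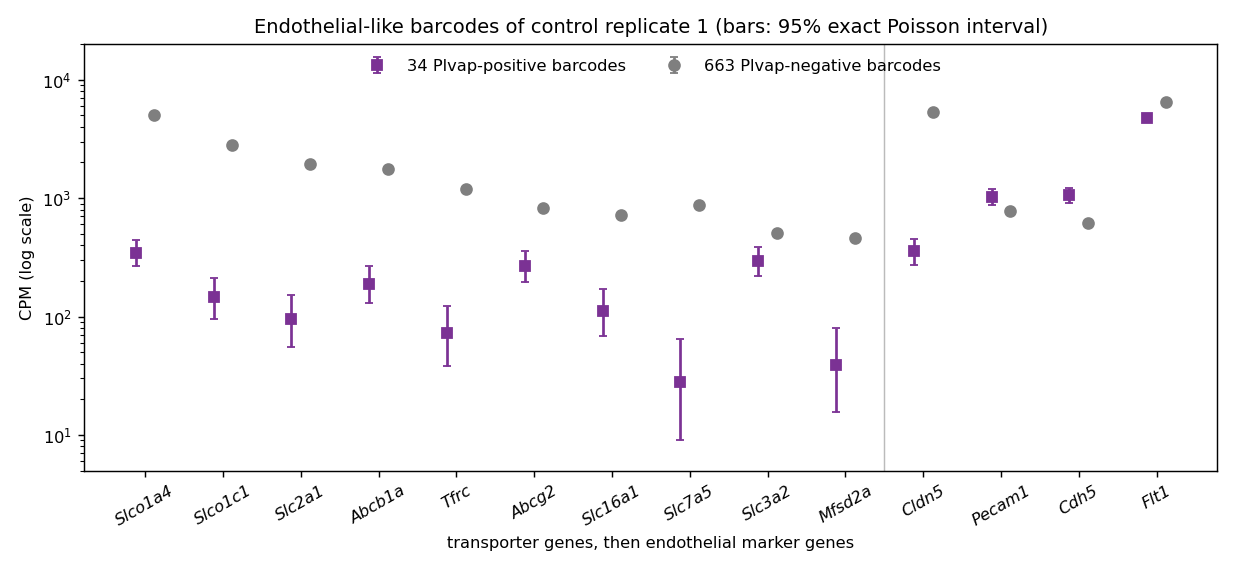
CPM on a log scale of the 10 transporter genes and 4 endothelial markers in 34 Plvap-positive (squares) and 663 Plvap-negative (circles) endothelial-like barcodes of control replicate 1, with 95% exact Poisson intervals. The transporter genes and Cldn5 lie lower in Plvap-positive barcodes, while Pecam1 and Cdh5 do not. The 4 markers belong to the endothelial-like gate.

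The study's design compares each knockout group with the floxed controls. No transporter gene passed the test between groups in endothelial-like barcodes. With edgeR's quasi-likelihood test over all 6 libraries, 0 of 10 genes were called for ECiKO against control, where 0.233% of 8600 genes were, and 0 of 10 for GlastiKO against control, where 0.314% were. In these fits, and in DESeq2 on the same 6 libraries, no transporter gene had an unadjusted p under 0.05 in either comparison. Over all genes, 133 for ECiKO and 166 for GlastiKO had one in edgeR. The median log2 fold change was 0.07 for ECiKO and 0.04 for GlastiKO against control, beside -0.03 and 0.00 over all genes tested. Of the wider transport list 0 of 41 genes passed in either comparison with edgeR, and the smallest unadjusted p-values were 0.0176 for the nucleoside carrier gene Slc29a1 in ECiKO (log2 fold change -1.13, adjusted p = 1) and 0.0442 for the fatty acid carrier gene Slc27a4 in GlastiKO (-1.42, adjusted p = 1). Standard errors of the 10 genes were 0.27 to 0.29 on the log2 scale, and a call needed a change several times that size. Gja1, at 1.20 ± 0.31 for ECiKO, only just passed in edgeR (adjusted p = 0.0496). Changes of the 10 genes well below that of Gja1 would not have been detectable.

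Slc2a1 had the largest log2 fold change of the 10 genes for GlastiKO, at 0.46 ± 0.27 (unadjusted p = 0.0941, adjusted p = 1). Its 2 GlastiKO values, 2305 and 2220 CPM, lay above both control values, 1805 and 1596 CPM. The ratio within libraries of the same number was 1.28 (95% interval of counting error 1.22 to 1.33) for replicate 1 and 1.39 (1.17 to 1.66) for replicate 2. For ECiKO the same ratios were 1.08 (1.03 to 1.14) and 0.991 (0.727 to 1.33). CPM of GlastiKO and control did not overlap for Slc2a1, Slco1a4 and Tfrc, 3 of the 10 genes, where 29% of all genes tested did not. For ECiKO and control 5 of the 10 did not overlap (Mfsd2a, Abcb1a, Abcg2, Slco1c1 and Tfrc), where 30.5% of all genes did not. Without Plvap-positive barcodes, ECiKO and control overlapped for Mfsd2a (458.8 and 509.1 against 462.9 and 476.1 CPM). They also overlapped for Abcb1a (1800 and 1742 against 1759 and 1339 CPM) and Slco1c1 (2943 and 2787 against 2806 and 2282 CPM). Abcg2 and Tfrc still did not overlap. The share over all genes without these barcodes was not computed.

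Tfrc was lower in the libraries numbered 1 of both knockout groups than in control replicate 1, by ratios of 0.819 (0.763 to 0.879) for ECiKO and 0.676 (0.631 to 0.725) for GlastiKO. In the libraries numbered 2 these ratios were 0.942 (0.645 to 1.35) and 0.939 (0.754 to 1.17). Its log2 fold changes were -0.26 ± 0.28 for ECiKO and -0.28 ± 0.27 for GlastiKO against control (adjusted p = 1 for both). The control libraries are shared by both comparisons.

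Slc16a1 moved in opposite directions in the ECiKO libraries. The ratio to the control library of the same number was 1.49 (1.38 to 1.60) for replicate 1 and 0.484 (0.272 to 0.81) for replicate 2, which rests on 17 UMIs. The log2 fold change was 0.06 ± 0.28 (adjusted p = 1). Slc7a5 showed ratios of 1.24 (1.15 to 1.33) and 0.866 (0.474 to 1.50) for ECiKO. The Slc16a1 ratios for GlastiKO were 1.009 (0.933 to 1.09) and 0.686 (0.529 to 0.89). Slco1c1 also moved in opposite directions for GlastiKO, at 0.941 (0.903 to 0.979) and 1.374 (1.185 to 1.597).

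**Figure D5:**
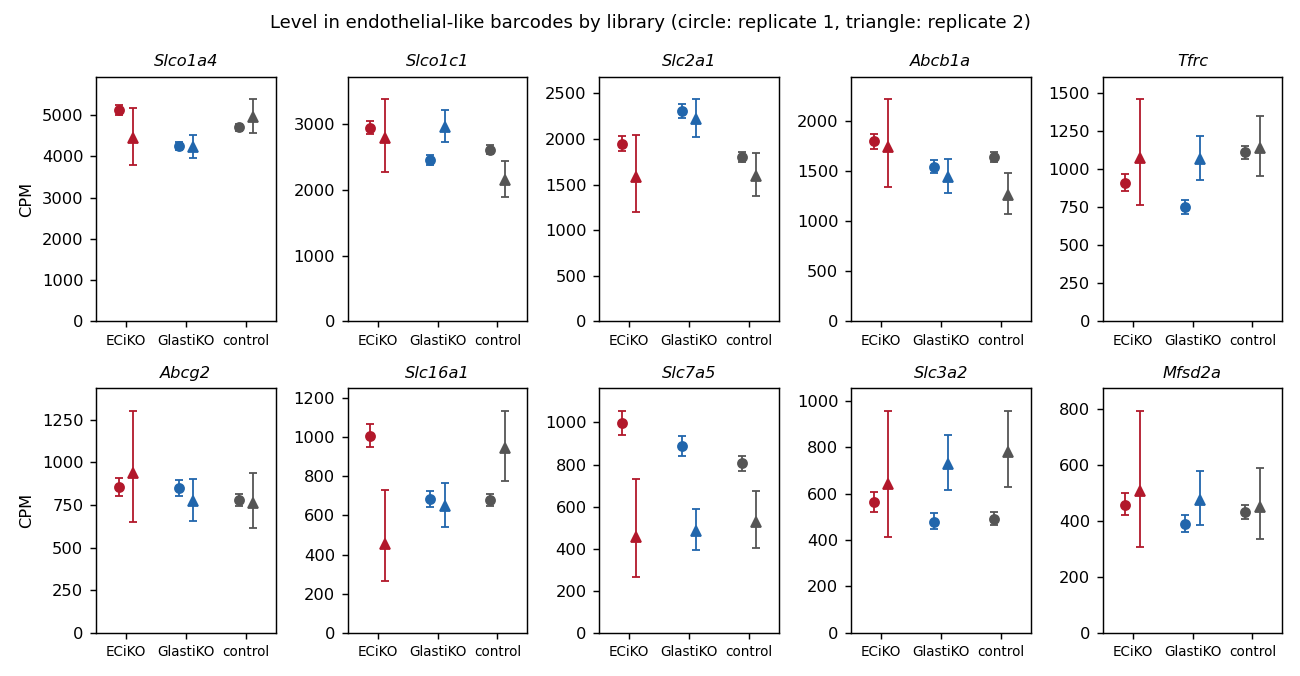
CPM of each gene in endothelial-like barcodes of ECiKO (red), GlastiKO (blue) and control (grey) libraries, with 95% exact Poisson intervals; circles are replicate 1 and triangles replicate 2, and every axis starts at 0. Slc2a1 lies higher in both GlastiKO libraries than in both control libraries, and Slc7a5 lies lower in replicate 2 than in replicate 1 of every group.

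Library number went with the level of several of the 10 genes in every group, the amino acid carrier chains among them. Slc7a5 was lower in the libraries numbered 2, at 455 CPM in ECiKO, 486 CPM in GlastiKO and 526 CPM in control, against 997, 889 and 805 CPM in the libraries numbered 1. Slc3a2 ran the other way, at 643, 729 and 781 CPM in the libraries numbered 2, against 562, 480 and 491 CPM in those numbered 1. Slc2a1 and Abcb1a were also lower in the libraries numbered 2 of every group, and Mfsd2a and Tfrc higher, at the levels given above. Abcg2, Slco1a4, Slco1c1 and Slc16a1 had no common direction. The share of all genes with a common direction was not computed. Markers of oligodendrocytes summed to 991, 923 and 934 CPM in endothelial-like barcodes of the libraries numbered 2 of ECiKO, GlastiKO and control, against 460, 548 and 403 CPM in those numbered 1, with 5 to 8 of 10 detected and Ermn at 0 in 4 of 6 libraries. Markers of astroglia summed to 53.6, 185 and 560 CPM in the libraries numbered 2, against 25.2, 66.8 and 361 CPM in those numbered 1, with 2 to 9 of 10 detected and Aldoc and Gjb6 at 0 in 5 of 6. Their part in the values of Slc7a5 and Slc3a2 was not tested. Leaving out Plvap-positive barcodes lowered the replicate 1 ratios of each of the 10 genes in both comparisons. Those of Slc2a1 became 1.00 (0.955 to 1.06) for ECiKO and 1.19 (1.14 to 1.25) for GlastiKO against control. Those of Tfrc became 0.763 (0.711 to 0.819) and 0.633 (0.59 to 0.678). For ECiKO, that of Slc16a1 became 1.395 (1.294 to 1.503) and that of Slc7a5 1.152 (1.071 to 1.238).

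In glia, where each group has 1 library with enough barcodes, the levels were compared without a test. Slco1c1 was 1.95-fold (1.69 to 2.25) of control in astroglial-like barcodes of ECiKO replicate 2 and 1.53-fold (1.39 to 1.68) of control in those of GlastiKO replicate 2, with intervals of counting error only and median depths of 1010, 4611 and 3761 UMIs in ECiKO, GlastiKO and control replicate 2. Its level also differed between astroglial-like clusters. In ECiKO, GlastiKO and control replicate 2 it stood at 1107, 753 and 819.7 CPM in the cluster numbered 9, at 1110, 602 and 567 CPM in that numbered 11, at 382, 240.1 and 238 CPM in that numbered 13 and at 305, 218 and 209 CPM in that numbered 8. The ECiKO value was the highest in each of these 4 clusters. Choroid plexus markers summed to 544, 89.1 and 106.8 CPM in astroglial-like barcodes of ECiKO, GlastiKO and control replicate 2. Choroid plexus-like barcodes also hold Slco1c1, and their part in these values was not tested. The cluster numbered 9 held 37 of 154 astroglial-like barcodes of ECiKO, 163 of 411 of GlastiKO and 68 of 407 of control replicate 2. Mfsd2a was 0.652-fold (0.545 to 0.78) of control in astroglial-like barcodes of GlastiKO replicate 2 and 1.02-fold (0.759 to 1.36) of control in those of ECiKO replicate 2. By cluster, GlastiKO was higher than control in those numbered 8 (130.1 against 94.96 CPM) and 11 (38.13 against 29.34 CPM). It was lower in those numbered 9 (103 against 154.8 CPM) and 13 (161.2 against 213.3 CPM). The cluster numbered 11 held 123 GlastiKO and 43 control barcodes, and that numbered 13 held 45 and 117. The part of this make-up in the Mfsd2a ratio was not tested. In oligodendrocyte-like barcodes Slc16a1 was 0.891-fold (0.788 to 1.01) of control in ECiKO replicate 2 and 1.02-fold (0.935 to 1.12) in GlastiKO replicate 2.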

How the data were processed

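Raw UMI counts per gene and barcode were deposited by the authors, without normalization, for 7433 barcodes kept by Cell Ranger. Version 5.0.0 with mm10 is named in the labels' protocols and version 2.1.1, besides Seurat 4, in the submitters' processing notes; libraries were made with a 10x 3′ kit, per the labels. Barcodes with at least 300 genes and at most 20% mitochondrial UMIs were kept (6323), and 49 doublets (0.775%; Scrublet, scanpy 1.11.5) were removed. Counts were summed per library and class of at least 10 barcodes and tested with edgeR 4.0.16 (R 4.3.3; filterByExpr, TMM, quasi-likelihood test, Benjamini-Hochberg at 0.05 over all genes tested); DESeq2 1.42.0 was an alternative. Standard errors were derived from each fold change and its F statistic. The fits were checked on simulated counts. CPM use the UMIs of the class without scaling, except where called scaled (TMM). Libraries held 1735247 and 5164001 UMIs in ECiKO replicates 1 and 2, 2642312 and 14859187 in GlastiKO, and 4056910 and 9775060 in control. Alternatives were other scalings, filters, gates, clusters, blocks and left-out libraries. Genes named are the 10 members, up to 4 of the wider transport list with the smallest unadjusted p per comparison, and Gja1. The members and lists were chosen with earlier results of these data known.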

Additional observations from a re-analysis of the deposited data

How the results depend on the processing

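The count of transporter genes called between groups was 0 under each alternative run, and the counts called higher in endothelial-like barcodes were 10 against pericyte-like and oligodendrocyte-like and 9 or 10 against astroglial-like barcodes. Between the vessel gates 3 genes were called, but 5 with the stricter vessel gate and 1 to 5 over the fits that leave out 1 library (1 without control replicate 1, 5 without control replicate 2). The mean share of endothelial-like barcodes with a UMI of a gene, over genes and libraries, was 74.6% unthinned, 74.4% at 2000 and 59.5% at 1000 UMIs. Thinning leaves out barcodes below the depth, and libraries with fewer than 10 barcodes left. These means therefore cover different barcodes, and their closeness does not show that depth has no effect. Signs of small, uncalled log2 fold changes were not stable. For ECiKO against control they turned without Plvap-positive barcodes for Slc2a1 (-0.0546), Mfsd2a (-0.0008) and Slc16a1 (-0.021), with DESeq2 for Slc16a1 (-0.0753) and with the replicate block for Slc3a2 (0.0204). For GlastiKO they turned for Mfsd2a with the replicate block (-0.0033), the looser gate (-0.0004), the stricter gate (-0.0084), clusters in place of the gate (-0.028) and without Plvap-positive barcodes (-0.0767), for Abcb1a without Plvap-positive barcodes (-0.0045), and for Slc3a2 with DESeq2 (-0.0095), the replicate block (-0.0002), clusters (-0.0044) and without Plvap-positive barcodes (-0.0481). Leaving out 1 library, where the lone library of a group is assumed to vary like the other groups, gave ranges that cross 0. For ECiKO these were -0.31 to 0.29 for Slc2a1, -0.0005 to 0.52 for Abcb1a, -0.31 to 0.20 for Slco1a4, -0.81 to 0.69 for Slc7a5, -0.36 to 0.18 for Slc3a2 and -0.99 to 0.47 for Slc16a1. For GlastiKO they were -0.049 to 0.0928 for Mfsd2a, -0.14 to 0.36 for Abcb1a, -0.0239 to 0.26 for Abcg2, -0.53 to 0.55 for Slc7a5 and -0.29 to 0.25 for Slc3a2. Between the vessel gates they were -0.13 to 0.0084 for Abcg2 and -0.21 to 0.024 for Slc7a5. The cause was not tested.

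Genes called over the whole table moved by more than 1.5 times in some fits. For ECiKO there were 20, but 2 with DESeq2, 31 with the replicate block, 1 without Plvap-positive barcodes and 5 to 33 without 1 library. For GlastiKO there were 27, but 2 with DESeq2, 10 without Plvap-positive barcodes and 6 to 33 without 1 library. Against pericyte-like barcodes 1498 genes were called, and 3540 without a filter on low counts; against astroglial-like barcodes 3050, and 2002 with DESeq2. Against oligodendrocyte-like barcodes 4362 were called, and 2719 to 4479 without 1 library; between the vessel gates 242, 138 with DESeq2 and 69 to 327 without 1 library. The labels do not say that replicate numbers pair the libraries. Deviations of same-numbered libraries correlated at 0.0966 (GlastiKO and control), 0.0506 (ECiKO and control) and 0.0593 (ECiKO and GlastiKO) over 8554 genes, and the replicate block called 0 transporter genes. An unadjusted p under 0.05 was reached by Slc2a1 for GlastiKO with the replicate block (0.0271, adjusted p = 1), and for ECiKO by Slc16a1 without ECiKO replicate 1 (0.0298, adjusted p = 0.639) and Slc7a5 without ECiKO replicate 2 (0.0472, adjusted p = 1), all in edgeR. Fits without Plvap-positive barcodes between classes and between gates were chosen after seeing the data. The 20 endothelial-like barcodes of ECiKO replicate 2, with 37322 UMIs, limit what that group can show.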

Other observations

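Classes outside the comparisons also held some of the 10 genes. In choroid plexus-like barcodes Slco1a4, the organic anion carrier gene, stood at 77.1 CPM in ECiKO replicate 2 (12 UMIs), 35.8 CPM in GlastiKO replicate 2 (8 UMIs) and 76.6 CPM in control replicate 2 (10 UMIs). Mfsd2a, Abcb1a and Slc7a5 had 0 UMIs in these barcodes. In neuroblast-like barcodes the amino acid carrier chain gene Slc3a2 stood at 124 CPM in ECiKO replicate 2 (43 barcodes), 189 CPM in GlastiKO replicate 2 (21 barcodes) and 176 CPM in control replicate 2 (4 barcodes). Its partner Slc7a5 had 0, 12 and 0 UMIs in the same libraries.

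In oligodendrocyte-like barcodes Slco1c1 was seen mostly in 1 library. It had 37 UMIs in 34 of 1948 barcodes of ECiKO replicate 2, 6 UMIs in 6 of 595 of GlastiKO replicate 2 and 3 UMIs in 3 of 440 of control replicate 2. Markers of other classes were also highest in the oligodendrocyte-like sum of ECiKO replicate 2. Choroid plexus markers summed to 932.2, 21.8 and 10.8 CPM in ECiKO, GlastiKO and control replicate 2. Endothelial markers summed to 15.4, 1.23 and 1.17 CPM in the same order. Their part in the Slco1c1 UMIs was not tested. Mfsd2a in oligodendrocyte-like barcodes was 2.04-fold (95% interval of counting error 1.55 to 2.72) of control in GlastiKO replicate 2 and 0.774-fold (0.487 to 1.20) of control in ECiKO replicate 2, with 1 library per group and no test.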
